A study of Mus musculus with 18 samples.

Results

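The circadian clock genes described here are 10 rows of a table of 24116 genes: Clock and Arntl, the activators of the clock, Per1, Per2, Cry1 and Cry2, the repressors that close its main loop, Nr1d1 and Nr1d2, the nuclear receptors of its side loop, and Dbp and Tef, transcription factors that carry its output. A row was taken where its gene symbol was exactly 1 of these names. Messenger RNA was measured in mouse intestinal organoids, small cultures of gut epithelium that grow from stem and progenitor cells. They were derived from wild-type C57BL/6 mice aged 8 weeks, with 3 libraries at each of days 0, 1, 2, 3, 4 and 5, and each library pooled 30 wells. They were kept in IntestiCult, a commercial growth medium, before day 0. From day 0 on, the medium contained EGF, Noggin and R-spondin. Until day 3 it also had 20% Wnt3a-conditioned medium and 10 µM of Y-27632, an inhibitor of ROCK. Until day 1 it further had 3 µM of CHIR99021, which inhibits GSK3 and so raises Wnt signalling. Day 3 shares its medium with day 2, and day 5 with day 4. In the other comparisons the day and the medium change together and cannot be told apart. For the time of day at which wells were collected, nothing is stated in the labels.

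The clock is a feedback loop of transcription found in most cells of the body. The dimer of CLOCK and BMAL1, the product of Arntl, binds E-boxes and activates the Per, Cry, Nr1d, Dbp and Tef genes. PER and CRY proteins return to the nucleus and inhibit that dimer. The REV-ERB proteins encoded by Nr1d1 and Nr1d2 repress Arntl through ROR elements, which RORs activate, and DBP and TEF activate genes that hold D-boxes. In the intestine the clock is known for timing cell division, nutrient uptake and barrier function over the day.

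The sequence before the start sites of these genes was searched for the motifs named above. RefSeq promoters of build GRCm38.p6 were matched for 9 of the 10 genes, all but Per2, with 14 start sites in all, and the 250 bases before each start were searched on both strands. The E-box CACGTG, a palindrome, was found for Per1 (at 1 of its 2 starts), Cry1 and both starts of Tef. It was found in 6.02% of the 32851 promoters searched, and for 6.86% of their 27025 genes. The related E′-box CACGTT, read AACGTG on the other strand, was found for Nr1d1, Cry1 and Cry2, and in 3.85% of promoters (4.5% of genes). The stretches below are 60 bases long, run 5′ to 3′ on the strand of the gene, and have 1 motif each in capitals. They are shown because these motifs are the ones the CLOCK and BMAL1 dimer is known to bind.
Per1 at chr11:69098756-69098815, plus strand: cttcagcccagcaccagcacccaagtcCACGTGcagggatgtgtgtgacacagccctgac
Cry1 at chr10:85185082-85185141, minus strand: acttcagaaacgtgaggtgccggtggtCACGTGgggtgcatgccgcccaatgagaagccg
Tef, upstream start, at chr15:81802519-81802578, plus strand: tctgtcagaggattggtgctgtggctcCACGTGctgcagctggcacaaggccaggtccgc
Tef, downstream start, at chr15:81811249-81811308, plus strand: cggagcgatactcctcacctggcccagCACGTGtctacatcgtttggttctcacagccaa
Nr1d1 at chr11:98775378-98775437, minus strand: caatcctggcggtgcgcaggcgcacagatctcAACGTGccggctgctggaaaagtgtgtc
Cry2 at chr2:92434203-92434262, minus strand: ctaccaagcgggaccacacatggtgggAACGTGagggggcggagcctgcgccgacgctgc
The motif ends 161 bases before the start in Per1, 55 in Cry1, 122 and 133 at the 2 starts of Tef, 23 in Nr1d1 and 161 in Cry2. The E′-box of Cry1 lies in the lower-case part of its stretch, at -79 to -74 from the start. The D-box TTANNTAA was found for Tef, at its upstream start, and in 5.43% of promoters (6.3% of genes). The ROR element TAGGTCA, in 2.23% of promoters (2.55% of genes), and the cAMP response element TGACGTCA, in 1.55% (1.77% of genes), were found for none of the 9 genes in these windows. A match describes the letters in the window and not a bound site.

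Levels are the deposited RPKM, in which reads are scaled to gene length and library size, so levels of different genes are given per length. The ranks between genes rest on the lengths used, which are 2979 bases for Arntl, 1678 for Dbp and 10574 for Clock where whole reads are recovered, against 7523, 2993 and 13727 for all exons of the gene in GENCODE M21. Ratios of RPKM between days do not depend on them. Differences in log2(RPKM + 1) depend on them in part, because 1 is added after the scaling to length. The libraries held an implied 43000000 to 53900000 reads. All 10 genes passed the filter of at least 1 RPKM in at least 3 libraries, as did 11111 genes in all. A value of these genes rested on 54 to 6287 reads, and the thinnest was Dbp in replicates 1 and 2 of day 1, with 54 reads each. Differences below are on the scale of log2(RPKM + 1), with standard errors (SE) from limma fitted over all 18 libraries. On that scale the change of a gene with low values comes out smaller than its fold. A call is an adjusted p under 0.05, two-sided, with the Benjamini-Hochberg adjustment over all genes tested. With 3 libraries a day, 2 days without overlap are common. This held for 41.2% of the genes tested at day 1 against day 0 and 52.9% at day 5 against day 1. It held for 54.1% at day 5 against day 0 and 8.21% at day 5 against day 4. Markers put these libraries in the epithelium: Epcam, Cdh1, Vil1, Krt8 and Cdx2 summed to 1107 to 2864 RPKM in each library. All 4 endothelial markers stayed under 1 RPKM in every library, as did 5 of 6 mesenchymal, 4 of 5 immune and 2 of 3 neural or glial markers. The exceptions were Pdgfrb, at 2.14 RPKM in replicate 1 of day 0, S100b, at 1.37 in the same library, and the macrophage marker Cd68, at up to 3.47. DNase treatment was left out for replicate 1 of each day (6 libraries) and used for the other 12. The replicates come from 3 organoid lines by their titles, which are cultures from different mice except that 2 of the 3 libraries of days 1 and 2 come from mouse 1. Over the genes tested, a library's log2 values correlated with the mean of the others of its day at 0.933 for replicate 3 of day 4, 0.946, 0.95 and 0.95 for replicates 1 and 2 of day 3 and replicate 1 of day 4, 0.955 for replicate 2 of day 2 and 0.957 for replicate 1 of day 0. The other 12 libraries lay between 0.97 and 0.989.

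Per1 and Per2 fell at day 1 and were still lower at day 5 than at day 0. Tef and Nr1d2 fell at day 1 and rose from day 1 to day 5. Dbp and Nr1d1 were called for the rise from day 1 to day 5, and Cry2 for the fall at day 1. Clock, Arntl and Cry1 were called in no comparison with libraries weighted equally. With limma's F test over all 6 days, 7 of the 10 genes were called, where 25.3% of the genes tested were. The F test over days 1 to 5 called 3 of 10, namely Dbp, Nr1d2 and Tef, against 9.45% of the genes tested.

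**Figure D1:**
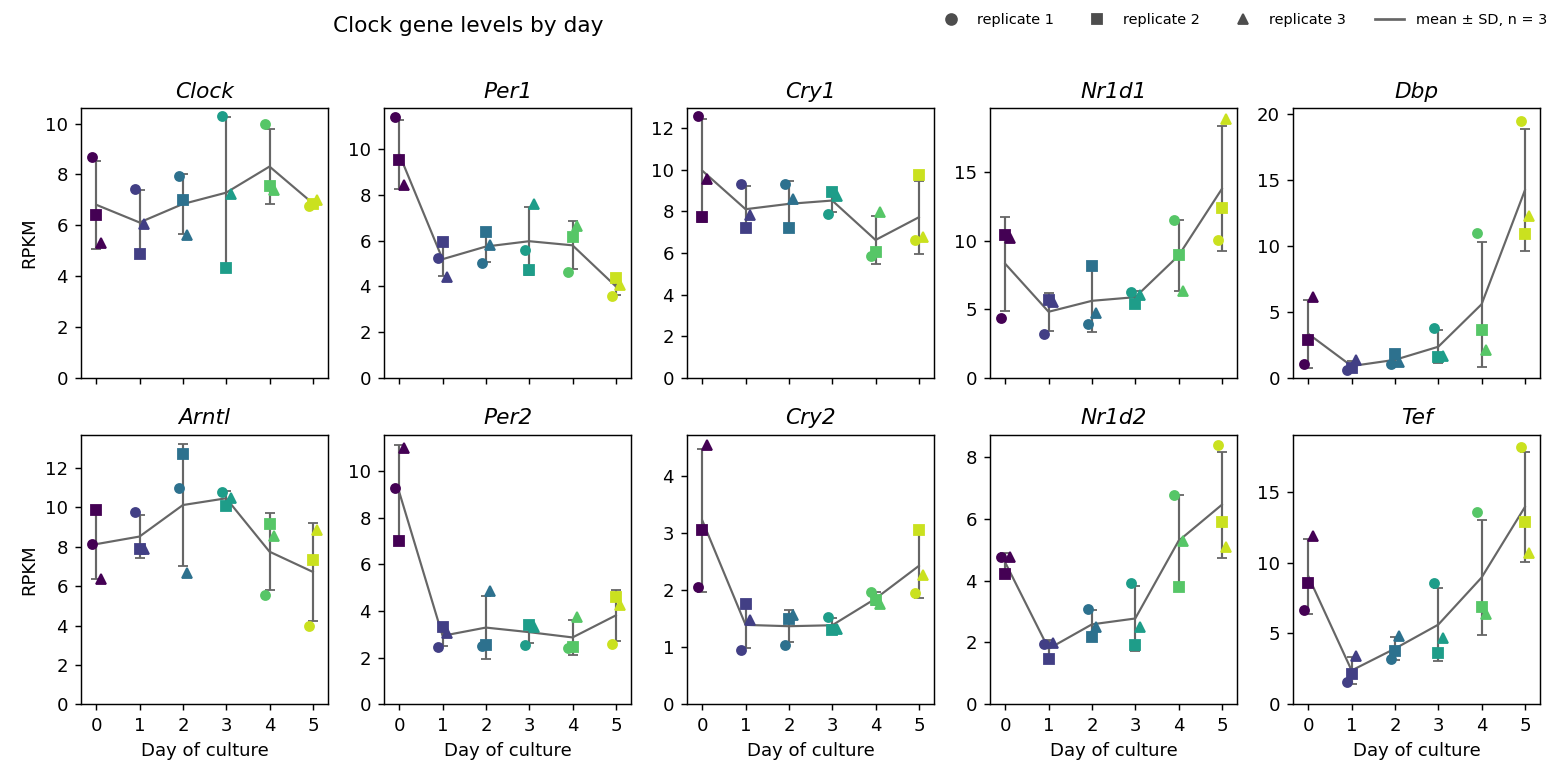
RPKM of each of the 10 clock genes (vertical axes, linear and starting at 0, scaled per gene) against day in culture (horizontal axis); points are the 3 libraries of a day, shaped by replicate, lines join the day means and bars are the SD. Per1 and Per2 stand highest at day 0 and low after it, Dbp and Tef dip at day 1 and are highest at day 5, and Clock and Arntl stay between 3.99 and 12.7 RPKM in every library.

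The ranking of the 10 genes changed in part between day 0 and day 5. At day 0 Cry1 had the highest mean, 9.97 ± 2.48 RPKM (SD, n = 3), followed by Per1 at 9.77 ± 1.48, Per2 at 9.1 ± 1.99 and Tef at 9.03 ± 2.62. These 4 lay within each other's SD, and Dbp at 3.34 ± 2.57 and Cry2 at 3.22 ± 1.25 were lowest. At day 1 the activator Arntl led at 8.53 ± 1.09, next to Cry1 at 8.11 ± 1.1, while Dbp was last at 0.89 ± 0.4. At day 5 Dbp at 14.2 ± 4.65, Tef at 13.9 ± 3.87 and Nr1d1 at 13.8 ± 4.55 were highest and within each other's SD. Per1 at 4 ± 0.387 and Per2 at 3.82 ± 1.09 then ranked below Clock, Arntl and Nr1d2. With the exon lengths of GENCODE M21, Per1 at 9.67 RPKM and Per2 at 9.33 would stand above Cry1 at 9 at day 0. At day 1 the means would be 3.38 for Arntl and 7.32 for Cry1, so Cry1 would lead. Arntl at day 5 would be at 2.66, below Per1 and Per2. Dbp would be at 7.98 at day 5, after Nr1d1 at 12.4 and Tef at 11.7, which with it would still be the highest 3. The ratio of the highest to the lowest day mean was 16 for Dbp, 5.82 for Tef, 3.6 for Nr1d2, 3.17 for Per2, 2.86 for Nr1d1, 2.44 for Per1 and 2.36 for Cry2. It was 1.55 for Arntl, 1.5 for Cry1 and 1.36 for Clock, the smallest ranges of the 10.

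Clock and Arntl encode the 2 partners of the activating dimer. Clock (Entrez 12753, chr5:76209868-76305603, build mm10) read 8.70, 6.41 and 5.31 RPKM in replicates 1, 2 and 3 of day 0 and 7.43, 4.86 and 6.04 at day 1. It read 7.93, 6.98 and 5.6 at day 2, 10.3, 4.33 and 7.22 at day 3, 10.0, 7.55 and 7.38 at day 4, and 6.76, 6.83 and 7 at day 5. Each day overlaps the day before it, except that the libraries of day 5 all lie below those of day 4, and replicate 1, the library without DNase treatment, is the highest of days 0 to 4. The F test over all days gave an adjusted p of 0.77 for Clock, and day 5 differed from day 0 by 0.03 (95% interval -0.47 to 0.54). Arntl (Entrez 11865, chr7:113178471-113314126) read 8.16, 9.88 and 6.37 RPKM at day 0, 9.78, 7.88 and 7.91 at day 1, and 11, 12.7 and 6.67 at day 2. It read 10.8, 10.1 and 10.5 at day 3, 5.53, 9.17 and 8.56 at day 4, and 3.99, 7.31 and 8.88 at day 5. The values are close together at day 3 and spread at days 2, 4 and 5, where replicate 1 is lowest at the last 2. The adjusted p over all days was 0.338, and day 5 against day 1 gave -0.35 (95% interval -0.91 to 0.20). These intervals bound the change of Clock and Arntl without showing that there was none.

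Per1 and Per2 encode the period proteins, which pair with cryptochromes to inhibit the activating dimer, and both genes are also known to respond quickly to growth factors, cAMP and glucocorticoids. Per1 (Entrez 18626, chr11:69095108-69109965) read 11.4, 9.53 and 8.42 RPKM at day 0 and 5.22, 5.92 and 4.43 at day 1. It read 5.01, 6.40 and 5.82 at day 2, 5.61, 4.71 and 7.61 at day 3, 4.61, 6.15 and 6.63 at day 4, and 3.59, 4.35 and 4.06 at day 5. Every library of day 0 lies above every later library, and the 3 libraries of day 5 lie below all others. Per1 fell by 0.80 from day 0 to day 1 (SE 0.17, adjusted p = 0.00546) and stood lower at day 5 than at day 0 by a log2 difference of -1.10 (SE 0.17, adjusted p = 0.000879). Between day 1 and day 5 it differed by -0.30 (95% interval -0.67 to 0.06), which was not called. Per2 (Entrez 18627, chr1:91415977-91459351) read 9.30, 7.01 and 11 RPKM at day 0 and 2.44, 3.30 and 3.07 at day 1. It read 2.49, 2.54 and 4.84 at day 2, 2.54, 3.42 and 3.32 at day 3, 2.40, 2.46 and 3.74 at day 4, and 2.57, 4.6 and 4.27 at day 5. Here too no later library reaches the lowest of day 0, and the later days overlap each other. Per2 fell by 1.34 from day 0 to day 1 (SE 0.23, adjusted p = 0.00131), from a mean of 9.1 to 2.94 RPKM, and was lower at day 5 than at day 0 by a difference of -1.08 (SE 0.23, adjusted p = 0.00652). Over days 1 to 5 the F test gave an adjusted p of 0.873 for Per2 and 0.249 for Per1. Within the 12 DNase-treated libraries the F test over all days no longer called Per1 (adjusted p = 0.0987) or Per2 (0.0589), and the day 5 difference of Per2 was -0.85 (adjusted p = 0.0687). Cd68 was also highest at day 0, with means of 3.02 ± 0.739 RPKM there, 1.32 ± 0.508 at day 1 and 0.635 ± 0.431 at day 5 (SD, n = 3), and lower at day 5 than at day 0 (difference -1.32, adjusted p = 0.00838), while the other 4 immune markers stayed under 1 RPKM. Among these, Ptprc had a mean of 0.00103 RPKM at day 0. Csf1r had means of 0.0155 ± 0.0269 RPKM at day 0 and 0.16 ± 0.0661 at day 5, the opposite direction to Cd68. The part of immune cells in the values of Per1 and Per2 was not tested.

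Cry1 and Cry2 encode cryptochromes, the partners of the period proteins. Cry1 (Entrez 12952, chr10:85131700-85185054) read 12.6, 7.72 and 9.56 RPKM at day 0, 9.32, 7.19 and 7.81 at day 1, and 9.31, 7.19 and 8.59 at day 2. It read 7.88, 8.94 and 8.75 at day 3, 5.87, 6.05 and 7.96 at day 4, and 6.64, 9.74 and 6.78 at day 5. Its days overlap, and the adjusted p over all days was 0.288. Cry2 (Entrez 12953, chr2:92403646-92434085) was the least abundant of the 4 repressors at every day. It read 2.06, 3.06 and 4.54 RPKM at day 0, 0.949, 1.75 and 1.47 at day 1, and 1.04, 1.5 and 1.56 at day 2. It read 1.53, 1.30 and 1.32 at day 3, 1.97, 1.83 and 1.75 at day 4, and 1.95, 3.05 and 2.27 at day 5. All libraries of days 1 to 4 lie below those of day 0, and day 5 overlaps day 0. Cry2 fell by 0.79 from day 0 to day 1 (SE 0.20, adjusted p = 0.0114). That call was lost without replicate 3 of day 0 (adjusted p = 0.0633), without replicate 1 of day 1 (0.05) and when days 0 and 1 were fitted alone (0.0539). The F test over all days (adjusted p = 0.0232) was lost without replicate 2 (0.0638) or replicate 3 (0.0624) of day 0. From day 1 to day 5 Cry2 differed by 0.52 (SE 0.20), and the adjusted p of 0.058 became 0.0342 without replicate 1 of day 0 and 0.0373 without replicate 3 of day 0.

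Nr1d1 and Nr1d2 encode REV-ERBα and REV-ERBβ, heme-binding receptors that repress Arntl. Nr1d1 (Entrez 217166, chr11:98767932-98775377) read 4.37, 10.4 and 10.2 RPKM at day 0, 3.21, 5.70 and 5.56 at day 1, and 3.96, 8.18 and 4.73 at day 2. It read 6.24, 5.39 and 6.04 at day 3, 11.5, 8.95 and 6.32 at day 4, and 10.1, 12.4 and 18.9 at day 5. Day 5 lies above day 1 without overlap, while replicate 1 of day 0 falls inside the range of day 1. Nr1d1 rose by 1.33 from day 1 to day 5 (SE 0.32, adjusted p = 0.00958), from a mean of 4.83 to 13.8 RPKM. Its difference of -0.63 between day 0 and day 1 (adjusted p = 0.189) became -0.99 (adjusted p = 0.0385) without replicate 1 of day 0. Over all days its F test gave an adjusted p of 0.0403, and of 0.0677 with the mouse as a block. The call stood without replicate 1 of day 0, replicate 2 of day 2, replicate 1 of day 3, replicate 1 of day 4 or replicate 3 of day 4, and was lost without any of the other 13 libraries, with adjusted p from 0.0516 to 0.122. Over days 1 to 5 the adjusted p of 0.0512 became 0.0286 without replicate 1 of day 0, 0.0287 without replicate 2 of day 2 and 0.0217 without replicate 3 of day 4. The Nr1d1 gene shares 1075 bases with the neighbouring Thra, a thyroid hormone receptor gene read on the opposite strand, and the use of strand in counting is not given in the sources used here. Thra had means of 26.1 ± 1.18 RPKM at day 0, 15 ± 1.08 at day 1 and 24.5 ± 4.04 at day 5 (SD, n = 3), and its part in the values of Nr1d1 was not tested.

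Nr1d2 (Entrez 353187, chr14:18204056-18239106) had a tighter course. It read 4.78, 4.22 and 4.76 RPKM at day 0, 1.95, 1.47 and 1.97 at day 1, and 3.07, 2.18 and 2.51 at day 2. It read 3.93, 1.91 and 2.49 at day 3, 6.78, 3.81 and 5.28 at day 4, and 8.38, 5.91 and 5.09 at day 5. Every library of day 1 is below every library of day 0, and every library of day 5 is above both. Nr1d2 fell by 1.00 from day 0 to day 1 (SE 0.22, adjusted p = 0.00507) and rose by 1.40 from day 1 to day 5 (SE 0.22, adjusted p = 0.00077). Against day 0, day 5 differed by 0.40 (95% interval -0.06 to 0.85), which was not called.

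Dbp and Tef encode PAR bZIP factors, which bind D-boxes in genes of metabolism and detoxification. Dbp (Entrez 13170, chr7:45705100-45710203) read 1.02, 2.88 and 6.11 RPKM at day 0, 0.597, 0.727 and 1.35 at day 1, and 1.03, 1.84 and 1.22 at day 2. It read 3.80, 1.60 and 1.67 at day 3, 11, 3.64 and 2.10 at day 4, and 19.5, 10.9 and 12.3 at day 5. The libraries of day 5 lie above all those of days 0 to 3, and only replicate 1 of day 4 reaches their range. The mean rose 16-fold, from 0.89 RPKM at day 1 to 14.2 at day 5, a log2 difference of 2.99 (SE 0.47, adjusted p = 0.000864). Dbp was also higher at day 5 than at day 0, by 1.95 (SE 0.47, adjusted p = 0.0109), and without replicate 1 of day 5 that difference was 1.72 (adjusted p = 0.0577). The values of day 0 spread over a wide range, and day 1 differed from day 0 by -1.04 (95% interval -2.03 to -0.04, adjusted p = 0.137). Without replicate 1 of day 0, which lies inside the range of day 1, the difference was -1.49 (adjusted p = 0.0412), and within the DNase-treated libraries it was -1.38 (adjusted p = 0.0156). Dbp shares 741 bases with Sphk2, a sphingosine kinase gene, whose means lay between 12.6 ± 0.423 RPKM at day 1 and 18.6 ± 2.63 at day 4.

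Tef (Entrez 21685, chr15:81802673-81826863) read 6.68, 8.55 and 11.9 RPKM at day 0, 1.56, 2.17 and 3.43 at day 1, and 3.2, 3.78 and 4.81 at day 2. It read 8.55, 3.63 and 4.69 at day 3, 13.6, 6.88 and 6.38 at day 4, and 18.2, 12.9 and 10.7 at day 5. Day 1 lies below days 0 and 5 without overlap, and the ranges of days 0 and 5 meet. Tef fell by 1.57 from day 0 to day 1 (SE 0.32, adjusted p = 0.00361) and rose by 2.14 from day 1 to day 5 (SE 0.32, adjusted p = 0.000597). Day 5 against day 0 gave 0.57 (95% interval -0.10 to 1.25, adjusted p = 0.182).

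Set side by side, 5 of the 10 genes were called lower at day 1 than at day 0, Per1, Per2, Nr1d2, Cry2 and Tef, and 0 higher, where 9.05% of the genes tested were called lower, 9.54% higher and 18.6% in either direction. The median difference of the 10 genes was -0.80, against 0.00 over all genes tested. From day 1 to day 5, 4 of 10 were called higher, Dbp, Tef, Nr1d2 and Nr1d1, and 0 lower, against 11.8% higher, 16.1% lower and 27.8% in either direction of all genes. Their median difference was 0.40, against -0.15 over all genes. Day 5 against day 0 called 3 of 10 (24.4% of all genes), with Dbp higher and Per1 and Per2 lower, against 11.4% higher and 13.0% lower of all genes, with medians of -0.12 and -0.17. These comparisons share the libraries of day 0 or of day 1, so a low value at day 1 enters a fall and a rise alike. Without overlap between the days, 0 of the 10 genes were higher and 5 lower at day 1 against day 0 (41.2% of the genes tested in either direction). At day 5 against day 1 these were 5 higher and 1 lower (52.9%), and at day 5 against day 0 they were 2 higher and 2 lower (54.1%). Median-of-ratios rescaling moved the median of all genes from -0.17 to 0.00 for day 5 against day 0 and from -0.15 to -0.03 for day 5 against day 1. The same genes were called there in the same direction, with Cry2 added as higher at day 5 than at day 1 (adjusted p = 0.0337).

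**Figure D2:**
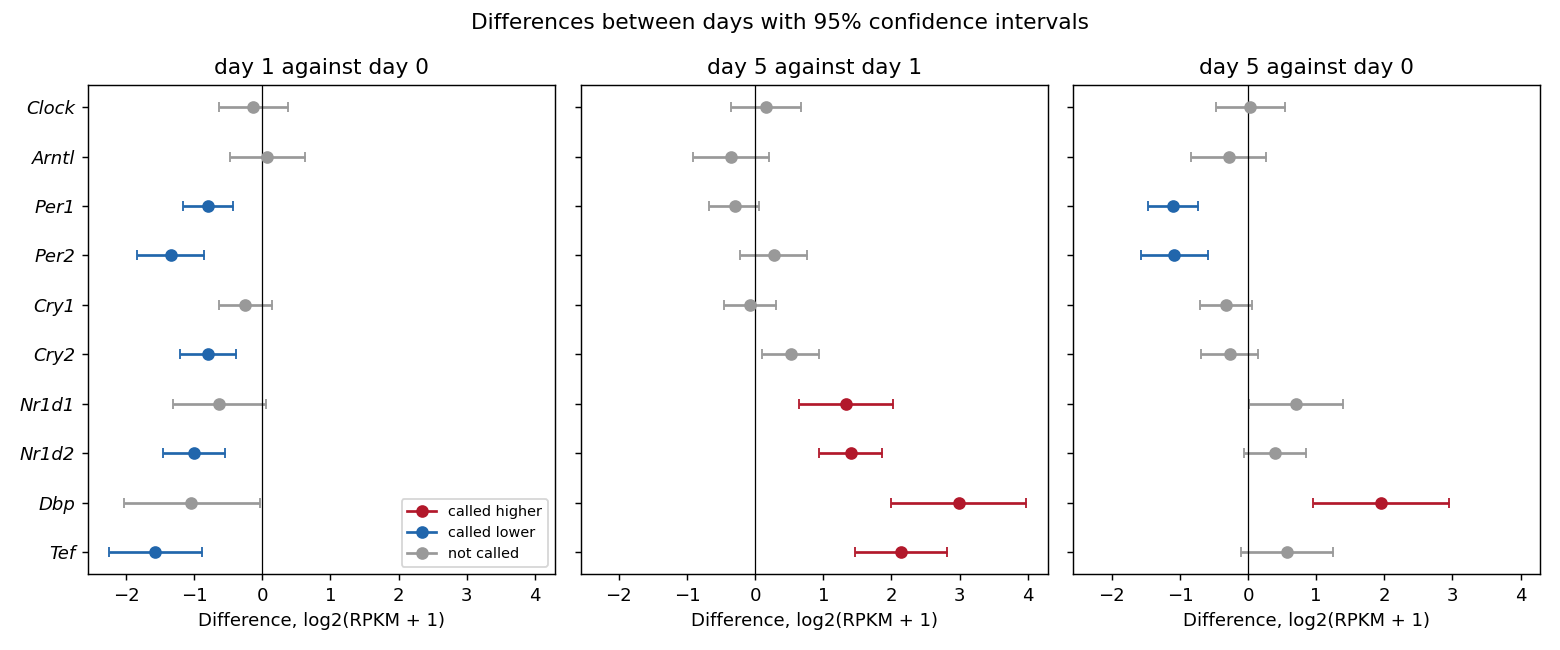
Differences in log2(RPKM + 1) with 95% confidence intervals from limma for the 10 clock genes (rows) in 3 comparisons (panels), coloured by call at an adjusted p under 0.05. At day 1 against day 0 the called genes are all lower, at day 5 against day 1 all higher, and at day 5 against day 0 Per1 and Per2 are lower and Dbp higher.

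No step of a single day after day 1 called any of the 10 genes with limma. The share of all genes called was 0% for day 2 against day 1, 0% for day 3 against day 2, 0.0360% for day 4 against day 3 and 0.189% for day 5 against day 4. At an unadjusted p under 0.05, 0, 0, 1 and 2 of the 10 genes passed in these 4 steps, and 2.37%, 0.432%, 4.87% and 4.09% of all genes. Nr1d2 was higher at day 4 than at day 3 by 0.74 (unadjusted p = 0.00343, adjusted p = 0.759). Dbp was higher at day 5 than at day 4 by 1.41 (unadjusted p = 0.00831, adjusted p = 0.641), and Per1 lower by a difference of -0.43 (unadjusted p = 0.0238, adjusted p = 0.972). With libraries weighted by their spread, 0, 0, 2 and 8 of the 10 genes were called, against 0%, 0%, 31.2% and 13.5% of all genes. In that fit replicate 2 of day 4 had a weight of 8.56 and the other libraries 0.25 to 4.47.

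The replicates of a day also differed in markers of cell types. At some days, but not at others, Dbp and Tef kept the order of the summed enterocyte markers. At day 4 the summed RPKM of 5 enterocyte markers, led by Fabp1, was 17175, 8736 and 2586 in replicates 1, 2 and 3, and Dbp read 11, 3.64 and 2.10 in the same order. Summed proliferation markers ran the other way at that day, at 78.5, 134 and 217. At day 5 the enterocyte sums were 14161, 11232 and 13195, and Dbp again kept their order, while Tef at 18.2, 12.9 and 10.7 and Nr1d1 at 10.1, 12.4 and 18.9 did not. The order of Dbp was also the same at days 1 and 3, where the sums were 1888, 2432 and 4924 and then 7046, 1861 and 3601. It differed at day 2, and at day 0 it was opposite: the sums were 648, 585 and 488 where Dbp read 1.02, 2.88 and 6.11. Tef, at 6.68, 8.55 and 11.9, was also opposite to the sums at day 0. Tef also kept the order of the sums at days 1, 3 and 4, and Nr1d1 at days 3 and 4. Single enterocyte markers did not all follow the sums. At day 5 Alpi read 595, 646 and 404, Sis 817, 660 and 889, and Krt20 137, 134 and 161. Fabp1 and Apoa1 kept the order of Dbp at that day. At day 1 Alpi, Apoa1 and Krt20 kept it, and Fabp1 and Sis did not. At day 3 all but Krt20 kept it, and at day 4 all 5 did. Replicate 1, which is mouse 1 without DNase treatment, was the highest library for Dbp, Tef and Nr1d2 at each of days 3, 4 and 5. It was the lowest for Dbp and Tef at days 0, 1 and 2. At days 0, 3, 4 and 5 the mouse and the DNase treatment cannot be told apart in that replicate. At day 1, replicate 2 is also mouse 1 but was treated, and it read 0.727 RPKM for Dbp and 2.17 for Tef against 0.597 and 1.56 in replicate 1. The same holds for replicate 2 of day 2, which read 1.84 for Dbp and 3.78 for Tef against 1.03 and 3.2 in replicate 1. Stem cell markers summed to 154 to 252 RPKM at day 0, 15.5 to 49.9 at day 1 and 399 to 625 at day 5, and Paneth cell markers to 80.7 to 203, 67.5 to 134 and 1864 to 2540. Markers of fetal or regenerating epithelium summed to 0.392 to 6.87 at day 0 and 125 to 400 at day 1. In a bulk library fewer cells of a type and less RNA per cell cannot be told apart, and the part of these cell types in the clock gene differences was not tested.

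**Figure D3:**
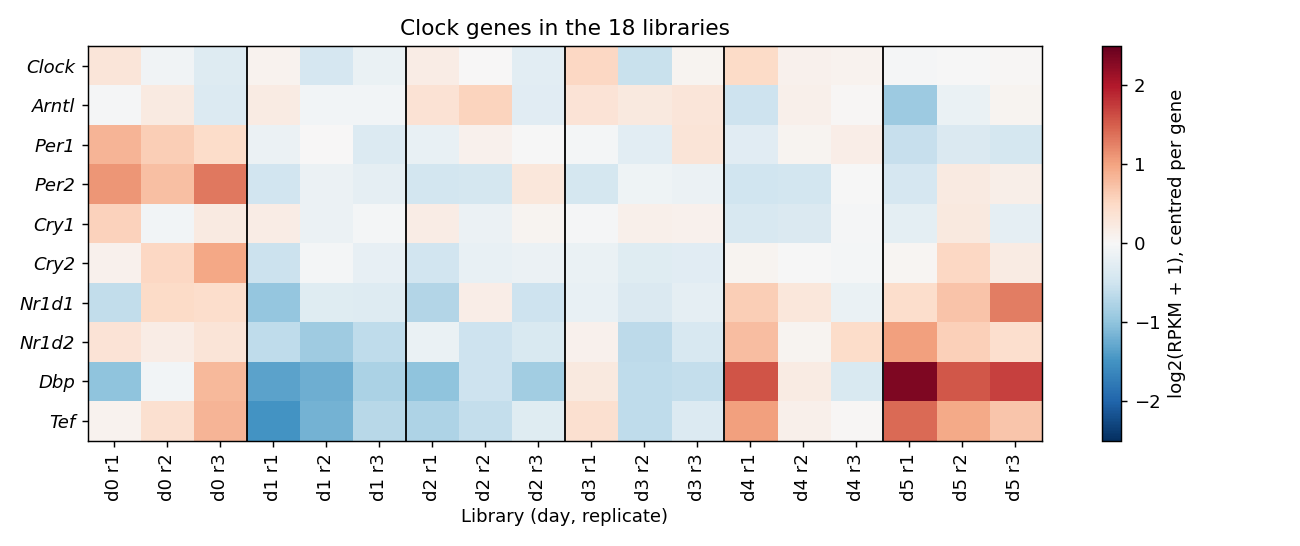
Deviation of each clock gene (rows) from its own mean over the 18 libraries in log2(RPKM + 1), as colour, for every library (columns, replicates 1 to 3 of days 0 to 5). Dbp, Tef, Nr1d1 and Nr1d2 are above their means in the libraries of day 5, and Per1 and Per2 in those of day 0.

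Across the 18 libraries, Dbp, Tef, Nr1d1 and Nr1d2 moved with each other and with Cry2, and Arntl moved against 3 of them. Of the 45 pairs of the 10 genes, 16 had an adjusted p under 0.05 for Pearson's r (permutation test with 100000 resamples, two-sided), 13 positive and 3 negative. Libraries of a day share their time in culture and medium. The closest pairs were Nr1d2 with Tef (r = 0.92, Spearman's rho = 0.89) and Dbp with Tef (r = 0.91, rho = 0.90), both with an unadjusted p of 1e-05, the smallest the permutations can give, and an adjusted p of 0.00015. Leaving out the 2 libraries farthest from the median of the first gene gave r = 0.89 and 0.90. Dbp with Nr1d1 followed (r = 0.86, rho = 0.90, adjusted permutation p = 0.00015). Cry2 gave r = 0.69 with Tef, 0.68 with Nr1d1, 0.56 with Dbp and 0.56 with Nr1d2 (adjusted permutation p from 0.00733 to 0.0426). With Per2 it gave r = 0.74 (adjusted permutation p = 0.00733), but by rank this pair did not pass (rho = 0.57, adjusted permutation p = 0.0662). Over days 1 to 5 its r was 0.47, and within days 0.43. The within-day version, which takes each library's deviation from its day mean and permutes within days, called Dbp with Tef alone (r = 0.86, unadjusted p = 0.00062, adjusted p = 0.0279).

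All 3 negative pairs held Arntl, the gene that REV-ERBs repress. Arntl gave r = -0.60 with Dbp (rho = -0.32, permutation p = 0.00826, adjusted p = 0.032), -0.60 with Tef (rho = -0.51, p = 0.00854, adjusted p = 0.032) and -0.58 with Nr1d2 (rho = -0.48, adjusted p = 0.0323). By rank none of the 3 passed, with an adjusted permutation p of rho of 0.388 for Dbp, 0.116 for Tef and 0.141 for Nr1d2. Without 2 libraries r was -0.47 for Dbp, -0.33 for Tef and -0.53 for Nr1d2, each weaker than over all 18 libraries. The 2 left out were those farthest from the median of Dbp, of Arntl and of Nr1d2, in that order. These exclusions differ, so the 3 values cannot be ranked against each other. Arntl with Nr1d1, the other REV-ERB gene, was not called (r = -0.32, rho = -0.32, adjusted permutation p = 0.376) and gave 0.15 within days. Per1 with Per2 gave r = 0.67 (rho = 0.38, adjusted permutation p = 0.0133) over 18 libraries and -0.03 over the 15 libraries of days 1 to 5, so this relation rested on day 0. Nr1d1 with Nr1d2 gave r = 0.63 (rho = 0.65, adjusted permutation p = 0.0258), and -0.25 within days. Arntl with Clock, the 2 partners of the dimer, gave r = 0.08 (rho = 0.28, adjusted permutation p = 0.827).

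**Figure D4:**
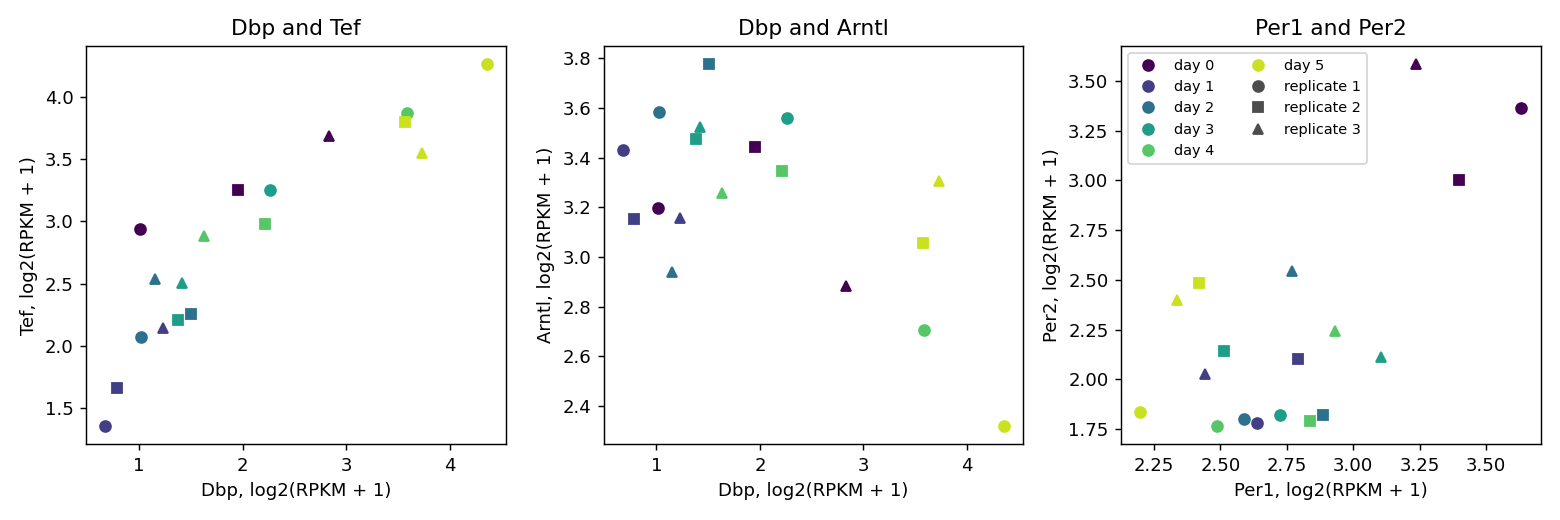
Library values in log2(RPKM + 1) for pairs of clock genes, 1 point for each of the 18 libraries, with colour for the day and shape for the replicate. Dbp against Tef lies along a line (r = 0.91), Dbp against Arntl has replicate 1 of day 5 at the far end, with the highest Dbp and the lowest Arntl (r = -0.60), and Per1 against Per2 shows the 3 libraries of day 0 away from the cloud of the later days (r = 0.67, and -0.03 without day 0).

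Other genes of the clock pathway were taken from a list of 39, in groups by role. Of the 2 further activators, both tested, neither was called over all days, where 25.3% of the genes tested were. Npas2, which can stand in for Clock, had means of 4.02 ± 0.355 RPKM at day 0 and 3.28 ± 1.64 at day 5 (adjusted p over all days 0.333). Arntl2, a relative of Arntl, was lower at day 5 than at day 0, at 0.851 ± 0.241 against 2.78 ± 0.644 RPKM (difference -1.02, adjusted p = 0.0327). That call was lost without any of replicates 2 and 3 of day 0 or the 3 replicates of day 5, with adjusted p from 0.0531 to 0.122.

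Among 5 further repressors 4 were tested, and 2 were called lower at day 1 than at day 0, where 9.05% of the genes tested were. Per3, the third period gene, read 1.87, 2.65 and 3.91 RPKM at day 0, 0.358, 0.653 and 0.724 at day 1, and 1.85, 2.39 and 2.72 at day 5. It fell by 1.24 at day 1 (SE 0.19, adjusted p = 0.000649) and rose by 1.07 from day 1 to day 5 (SE 0.19, adjusted p = 0.00235), where day 1 lies below both other days without overlap. Per3 thus came back to a mean of 2.32 ± 0.438 RPKM at day 5, near the 2.81 ± 1.03 of day 0 (difference -0.17, adjusted p = 0.505), while Per1 and Per2 were called lower at that day. The difference between these courses was not itself tested. Ciart, which inhibits the activating dimer, fell by 1.08 at day 1 (adjusted p = 0.0321), and the call was lost without replicate 2 or 3 of day 0 or any replicate of day 1 (adjusted p from 0.0538 to 0.153). Bhlhe40, a repressor that competes for E-boxes, was abundant at 53.7 ± 5.93 RPKM at day 0, 42.7 ± 7.96 at day 1 and 56.8 ± 19.7 at day 5. Its adjusted p over all days was 0.205, and 0.0322 without replicate 1 of day 5.

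Rora, which encodes a receptor that opposes the REV-ERBs, read at most 0.0244 RPKM in any library. Hlf, the third PAR bZIP gene, had a mean of 0.275 ± 0.134 RPKM at day 0 and was not tested. Nfil3, which binds D-boxes and opposes DBP, had means of 6.21 ± 0.182 RPKM at day 0, 2.67 ± 0.59 at day 1 and 2.46 ± 0.907 at day 5. It was called lower at day 5 than at day 0 (difference -1.09, adjusted p = 0.0283), a call lost without any replicate of day 0 or replicate 1 of day 5 (adjusted p from 0.0579 to 0.133). At day 1 against day 0 its adjusted p was 0.0507, and 0.00655 to 0.0496 without replicate 1 or 2 of day 3, 1 or 3 of day 4, or 1 of day 5.

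Of 10 tested kinases, ligases and regulators, 1 was called over all days, against 25.3% of the genes tested. It was Prkaa2, a catalytic subunit of AMP-activated kinase (F test, adjusted p = 0.0142). Prkaa2 was higher at day 1 than at day 0 by 0.64 (adjusted p = 0.0231), a call lost without replicate 2 or 3 of day 0 or replicate 1 or 3 of day 1 (0.0791 to 0.101). Day 5 against day 0 called 2 of the 10 regulators lower, against 13.0% of the genes tested. They were Nono, a partner of the period proteins (-0.63, adjusted p = 0.0474), and Gsk3b, a kinase of clock proteins (-0.43, adjusted p = 0.0372). With median-of-ratios rescaling these had adjusted p of 0.0509 and 0.178, and the call of Nono was lost without any of 11 libraries (0.0544 to 0.138) and that of Gsk3b without any of 5 (0.0509 to 0.165). Among 6 known outputs of the clock, day 1 against day 0 called 2 higher and 0 lower, against 9.54% higher and 9.05% lower of the genes tested. Tspan4, a tetraspanin, rose by 2.51, from 0.952 ± 0.0508 to 10.4 ± 2.88 RPKM (SE 0.38, adjusted p = 0.000484), and was lower at day 5 than at day 1, at 2.74 ± 0.672 (difference -1.59, adjusted p = 0.00894). Hsd17b11, a steroid dehydrogenase, rose by 1.22 at day 1, from 25.5 ± 5.03 to 62.1 ± 22 RPKM (adjusted p = 0.0155), but not without replicate 3 of day 0 (0.0715) or replicate 3 of day 1 (0.0836). Nampt, which makes the NAD precursor, was higher at day 5 than at day 1, at 31.4 ± 3.56 against 16.7 ± 3.08 RPKM (difference 0.88, adjusted p = 0.0158, but 0.068 without replicate 2 of day 1 and 0.0598 without replicate 1 of day 5).

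Immediate early and glucocorticoid target genes are given because Per1 and Per2 are known to answer the same signals. Of 4 tested immediate early genes, 3 were called lower at day 1 than at day 0 and 4 at day 5 than at day 0. The shares of all genes tested called lower there were 9.05% and 13.0%. Fos read 300, 114 and 133 RPKM at day 0, 15.7, 38.3 and 36.9 at day 1, and 2.76, 7.11 and 6.01 at day 5. It fell by 2.52 at day 1 (adjusted p = 0.00431), with no overlap between the days. The fourth, Nr4a1, was called at day 5 only (adjusted p = 0.0479), a call lost without any of 12 libraries (0.0538 to 0.165). Jun fell by 3.29, from 78.6 ± 4.42 to 7.27 ± 1.96 RPKM (adjusted p = 2.62e-05), and Egr1 by 2.64, from 96.8 ± 1.66 to 15.4 ± 5.78 (adjusted p = 0.000284). Of 4 tested glucocorticoid targets, day 1 against day 0 called 1 higher and 1 lower, against 9.54% and 9.05% of the genes tested. Fkbp5 rose by 1.62, from 11.6 ± 9.63 to 31.4 ± 5.4 RPKM (adjusted p = 0.0178), and was lower at day 5 than at day 1, at 5.85 ± 2.61 (difference -2.30, adjusted p = 0.00329). The rise was lost without replicate 2 or 3 of day 0 or of day 1 (adjusted p from 0.0596 to 0.0951). Tsc22d3 went the other way, falling by 0.96 at day 1 (adjusted p = 0.0311), a call lost without replicate 1 or 2 of day 0 or any replicate of day 1 (0.0555 to 0.125) and with median-of-ratios rescaling (0.0764). From day 1 to day 5 it rose by 0.96 (adjusted p = 0.0251), which did not hold without replicate 1 or 2 of day 1 or of day 5 (0.0639 to 0.0919). The part of these signals in the values of Per1 and Per2 was not tested.

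Genes with the pattern most like 3 of the clock genes were looked up among all genes tested, by Pearson's r over the 18 libraries and with a highest day mean of at least 5 RPKM. For Dbp these were Net1 (r = 0.957), Higd2a (0.957) and Mpnd (0.954), all above Tef at 0.909. Net1 had day means of 41.3, 27.9, 33.1, 38.3, 48.5 and 73.7 RPKM from day 0 to day 5. For Nr1d1 they were Ctns (r = 0.942), Trappc9 (0.927) and Fam98c (0.923), and for Arntl Sec23b (0.853), Gnaq (0.831) and Ube4a (0.804). None of the closest genes was a member of the clock pathway list. These correlations describe the libraries and carry no test, since they are the highest among many genes.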

How the data were processed

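The authors deposited RPKM values for 24116 genes in 18 libraries. Per the submitters' processing notes the tools were bcl2fastq 2.17, STAR 2.5.2b and edgeR 3.20.5 with build mm10; not given in the sources used here: their roles, the annotation, the use of strand and the treatment of reads matching several genes. RPKM depend on the gene length assumed, which cancels in ratios between days but not fully in log2(RPKM + 1) or in the filter. Library depth was recovered from the steps between low values (tolerance 0.02 of a read). The rule for the members uses names only, but the members, gene lists and tests were proposed with earlier results of these data known. Differences were tested with limma 3.58.1 in R 4.3.3 (lmFit, eBayes with a trend) on log2(RPKM + 1), 1 coefficient per day over 18 libraries, after a filter of 1 RPKM in 3 libraries, and the code was tested on simulated data. Libraries of a day are separate organoid lines by their titles, with the exception given at days 1 and 2. The pairing by mouse comes from those titles: deviations from day means had a median correlation of 0.14 over 47 pairs of libraries of 1 mouse and -0.06 over 88 pairs of different mice. Named genes were the 10 members, the called genes of the pathway list (up to 4 a group), 6 listed genes whatever their result, and the 3 genes most like Dbp, Nr1d1 and Arntl; 1 gene of the pathway list is not reported here. Alternatives were other pseudocounts, filters and scalings, array weights (limma's gene-by-gene method), blocks by mouse and by replicate number, DNase-treated libraries only, the days compared alone, and leaving out libraries. Coordinates and promoters are from RefSeq (GRCm38.p6), and the promoters of chromosome 18 were not used here. Python 3.11.15 with pandas 2.3.3 and scipy 1.17.1 computed the rest.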

Additional observations from a re-analysis of the deposited data

How the results depend on the processing

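Of the 22 calls of a clock gene, 15 held under every alternative run for them (up to 30), and none changed direction. Of the 43 calls of the other pathway genes, 25 held under every alternative and 0 changed direction. The exceptions are given beside Per1, Per2, Cry2, Nr1d1 and Dbp, to which quantile normalization adds Cry2 over all days (adjusted p = 0.0675) and at day 1 against day 0 (0.0516), and no filter adds Nr1d1 over all days (0.0737). Leaving out each library in turn gave 5 to 7 called genes over all days (14.6% to 45.4% of all genes), 3 to 4 over days 1 to 5 (2.58% to 26.2%), 4 to 7 at day 1 against day 0 (10.6% to 21.6%), 2 to 3 at day 5 against day 0 (7.97% to 31.9%), 4 to 5 at day 5 against day 1 (13.3% to 35.6%), and 0 to 0 at each of the 4 steps of a single day after day 1. Array weights gave 8 over days 1 to 5 (60.3% of all genes), 2 at day 4 against day 3, 8 at day 5 against day 4 and 5 at day 5 against day 0 (63.4% of all genes); the cause was not tested. The replicate block by mouse changed the call of Nr1d1 over all days (0.0677) and of no other clock gene. The block by replicate number, which at days 1 and 2 differs from the mouse, added Nr1d1 over days 1 to 5 (0.0407) and Cry2 at day 5 against day 1 (0.0381). Without replicate 1 of day 0, replicate 2 of day 3 and replicate 3 of day 4 together, Dbp (-1.49, adjusted p = 0.0213) and Nr1d1 (-0.99, 0.031) were also called lower at day 1. These 3 are not the 3 libraries with the lowest correlation to their day. Of them only replicate 1 of day 0 enters this comparison, and the differences equal those found without it alone. The 16 called pairs became 10 over days 1 to 5 and 1 within days. Per1 with Per2 turned to -0.03 over days 1 to 5, and within days Nr1d1 with Nr1d2 turned to -0.25 and Nr1d2 with Cry2 to -0.14. With 3 libraries a day, intervals of about 1 log2 unit in width limit what can be seen for the activators.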
